A study of Rattus norvegicus with 20 samples.

Results

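The 50 genes described here carry out or signal DNA repair. A member was tested where an array probe carried a RefSeq accession of that gene. This held for 24 of the 50 members, among 36043 genes tested on the array. They were sorted by pathway: homologous recombination (Brca1, Brca2, Rad50, Mre11 and Nbn), the Fanconi anaemia pathway (Fancc and Fancd2), checkpoint kinases (Chek1 and Chek2), end joining (Xrcc4, Xrcc5 and Xrcc6), base excision (Xrcc1, Lig1, Parp1, Ogg1, Mutyh, Ung, Apex1, Polb and Mpg), nucleotide excision (Ercc3), replication protein A (Rpa2) and direct reversal of damage (Mgmt). The other 26 were not analysed here: Palb2, Rad52, Rad54l, Xrcc2, Xrcc3, Blm, Wrn, Fanca, Fancg, Atm, Atr, Prkdc, Lig4, Lig3, Parp2, Xpa, Xpc, Ercc1, Ercc2, Ercc5, Ddb1, Rpa1, Rpa3, Msh3, Msh6 and Pms2. All 3 mismatch repair members are among them, so mismatch repair is described only through genes outside the 50.

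Ionizing radiation breaks DNA strands and oxidizes bases. Breaks through both strands are rejoined directly by end joining or copied from the sister chromatid by homologous recombination. The latter is active after DNA replication, and the Fanconi anaemia pathway works with it on crosslinked DNA. Damaged bases are cut out one at a time by glycosylases and replaced in base excision repair, bulky lesions are removed as a short stretch in nucleotide excision repair, and mismatch repair corrects copying errors. In the mammary gland, inherited loss of BRCA1 or BRCA2 is known for its link to breast cancer in humans.

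RNA was measured in 12 mammary adenocarcinomas and 8 normal mammary tissues of female Sprague-Dawley (Jcl:SD) rats, with 1 single-colour array per sample. Obesity-prone rats (OP; 6 cancers and 3 normal tissues) and obesity-resistant rats (OR; 3 and 2) were divided by body weight on a diet with 45 kcal% fat, and lean controls (LC; 3 and 3) ate a diet with 10 kcal% fat. The labels give the same whole-body exposure for all of them, 4 Gy of gamma rays from Cs-137 at 0.5 Gy/min at 7 weeks of age, and 30 weeks of follow-up on the same diet. No group was left unirradiated, so these data hold no comparison of repair genes with and without radiation. The carcinomas had been picked for even histology without necrosis or marked infiltrate. Separate animals are not named for the samples, and the p-values cover only the spread among these 20 samples.

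Levels are log2 spot intensities after background correction and quantile normalization, so a difference of 1 is 2-fold. A signal well above the local background was found for 68.5% ± 6.60 (SD, n = 12; 61.3% to 79.3%) of probes in cancers and for 94.1% ± 3.33 (SD, n = 8; 87.7% to 97.7%) in normal tissue. Of the 24 members, 23 were well above background on all 20 arrays, and Brca1 was so on 8 of 12 cancers and on every normal tissue. Passing did not mean the same level in both tissues. Chek1, Fancd2 and Mre11 passed in all 8 normal tissues at means of 6.46, 6.53 and 6.55. In cancers, Aqp7 (6.27) and Lep (6.38) passed on 0 of 12 arrays, Dntt (6.53) on 1 and Ube2b (6.55) on 2. In normal tissue Klrd1 (6.64) passed on 3 of 8. Whether Chek1, Fancd2 and Mre11 rise above the floor of the scale in normal tissue was not tested. The tissue labels held against their markers. All 11 tested adipocyte markers were lower in cancers (median log2 difference -4.98), all 12 luminal epithelium markers higher (median 1.61), and 6 of 8 fibroblast markers lower. In bulk tissue, fewer cells of a type and less RNA per cell cannot be told apart, and the part of tissue makeup in the results below was not tested.

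Promoter sequence is shown for the members called higher in cancers whose start region holds a known word for E2F. This is the transcription factor family of genes used around S phase. The sequences shown were thus picked by the expression result, and Rpa2, which also holds a word, is left out. The RefSeq table (build GRCr8) gave 250 bases before to 50 after the start for 21 of the 24 members. The words searched were TTTGGCGC, TTTGCCGC, TTTCGCGC and TTTCCCGC on both strands. They were found in 6 of 21 members, against 2.14% of all 33469 promoters of this length in the table. Member promoters hold more CpG (median 23 per promoter against 7), and among promoters with at least 15 CpG, a limit set after the data were seen, 4.78% of 10717 held a word, as did 6 of 18 member promoters. Of the 6, Chek1, Fancd2, Fancc, Lig1 and Ung were higher in cancers, as described below, and Rpa2 was not called. The 5 are printed 5′ to 3′ along each gene, with the E2F word in capitals.
Chek1: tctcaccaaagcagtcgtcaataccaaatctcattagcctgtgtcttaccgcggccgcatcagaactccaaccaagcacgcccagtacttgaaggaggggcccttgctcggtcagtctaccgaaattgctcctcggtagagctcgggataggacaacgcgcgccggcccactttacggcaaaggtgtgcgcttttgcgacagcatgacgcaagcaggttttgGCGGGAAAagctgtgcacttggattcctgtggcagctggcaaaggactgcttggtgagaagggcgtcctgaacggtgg
Fancd2: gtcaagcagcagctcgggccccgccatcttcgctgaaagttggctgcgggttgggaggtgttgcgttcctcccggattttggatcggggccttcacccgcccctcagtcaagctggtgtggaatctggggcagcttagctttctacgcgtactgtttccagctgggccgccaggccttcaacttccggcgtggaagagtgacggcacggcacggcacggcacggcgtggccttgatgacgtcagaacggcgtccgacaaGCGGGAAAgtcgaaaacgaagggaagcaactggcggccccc
Fancc: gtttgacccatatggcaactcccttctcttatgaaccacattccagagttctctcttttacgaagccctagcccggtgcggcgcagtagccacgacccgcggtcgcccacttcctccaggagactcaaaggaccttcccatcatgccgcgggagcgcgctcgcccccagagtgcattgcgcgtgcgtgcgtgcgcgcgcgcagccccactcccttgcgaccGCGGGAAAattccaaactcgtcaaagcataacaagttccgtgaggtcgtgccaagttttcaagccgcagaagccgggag
Lig1: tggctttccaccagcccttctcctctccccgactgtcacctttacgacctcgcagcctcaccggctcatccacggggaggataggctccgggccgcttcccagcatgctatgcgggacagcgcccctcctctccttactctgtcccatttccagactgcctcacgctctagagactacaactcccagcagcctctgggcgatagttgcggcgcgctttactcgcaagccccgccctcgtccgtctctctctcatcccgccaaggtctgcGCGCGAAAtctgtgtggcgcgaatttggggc
Ung: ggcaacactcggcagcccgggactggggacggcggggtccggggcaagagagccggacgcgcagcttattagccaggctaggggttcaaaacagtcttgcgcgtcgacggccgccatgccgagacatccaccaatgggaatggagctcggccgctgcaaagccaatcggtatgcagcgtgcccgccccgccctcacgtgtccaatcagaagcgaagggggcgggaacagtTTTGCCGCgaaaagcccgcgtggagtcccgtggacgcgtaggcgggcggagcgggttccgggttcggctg
They lie at chr8:44629794-44630093 on the minus strand (Chek1), chr4:148234458-148234757 on the plus strand (Fancd2), chr17:1686839-1687138 on the plus strand (Fancc), chr1:83242920-83243219 on the plus strand (Lig1) and chr12:48153996-48154295 on the minus strand (Ung). The word begins 28, 29 and 20 bases before the start in Chek1, Fancc and Ung, and 9 and 19 bases after it in Fancd2 and Lig1. None of these E2F words was found in the windows of Mgmt and of 10 of the 15 members that were higher in cancers. The words CCAAT (9 of 21 members, 37.5% of all promoters) and GGGCGG (13 of 21, 33.1%) were searched in the same way. A match describes these letters only.

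Repair genes were mostly higher in the cancers. At an adjusted p under 0.05 (limma, Benjamini-Hochberg over all genes), 15 of 24 members were higher in the 12 cancers than in the 8 normal tissues (62.5%), beside 29% of all genes, and 1 was lower (4.17%), beside 33.5% of all genes; the lower count was 6, 6 and 5 with the 2 scalings to the 75th percentile and in the authors' deposited table, described next. The other 8 were not called. Calls in either direction took 66.7% of the members and 62.4% of all genes, a share near the background. Among the 8662 tested genes with a symbol, 32.1% were higher and 29.7% lower. By at least 2-fold, 6 members rose as reported (Rad50, Chek1, Fancd2, Fancc, Xrcc5 and Apex1), beside 5.74% of all genes, and Mgmt fell, beside 5.87%. The median log2 difference was 0.39 over the members and -0.03 over all genes. With the reported scaling, every cancer lay above every normal tissue in 6 members (Rad50, Mre11, Fancd2, Chek1, Xrcc5 and Apex1), beside 8.63% of all genes. In none did every cancer lie below, beside 11.6%. Overlap was not checked under the other scalings. For Mre11, Fancd2 and Chek1 it rests on low normal tissue levels, with means of 6.55, 6.53 and 6.46 as given above. The 95% interval of a log2 difference reached 0.205 to either side at the median SE.

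**Figure D1:**
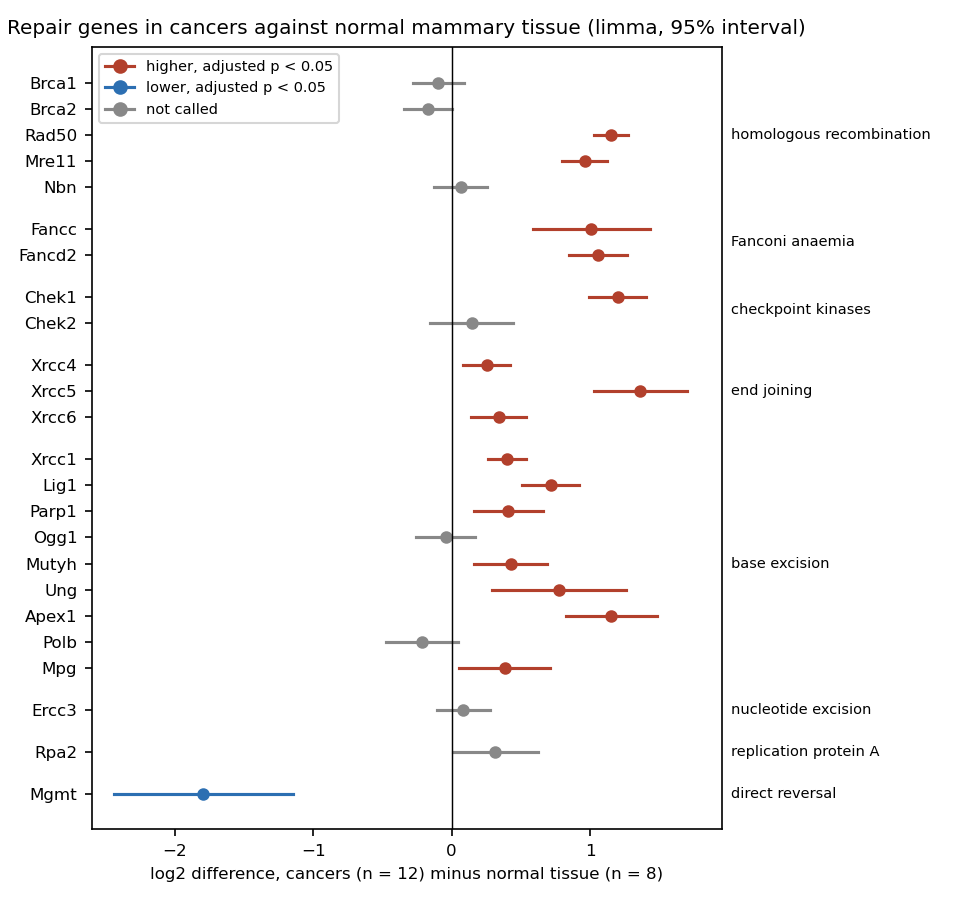
Log2 difference of each of the 24 tested repair genes between cancers (n = 12) and normal tissue (n = 8), with its 95% interval (horizontal line), ordered by pathway; red points are higher and blue points lower at an adjusted p under 0.05, and grey points were not called. Points run from -1.79 for Mgmt to 1.36 for Xrcc5, and 15 of the 24 are red; Xrcc4 and Mutyh are lower instead when arrays are scaled to their 75th percentile.

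How the arrays were scaled matters here, and the tissues also differ in how many probes light up. A link between these was not tested. Scaling to the 75th percentile of each array put the median of all genes at -1.51 on the processed signal and -0.80 after the same background correction, and -0.19 in the authors' deposited value table. Rises made up 46.4% of all calls as reported, 17.7% and 17.3% with the percentile scalings, and 39.5% in the table of the authors. The members' median stayed above 0, at 0.43, 0.29 and 0.45, and 22, 21 and 15 (of 20 with a value) lay above that of all genes. Of the 16 called members, 9 that were higher (Rad50, Fancc, Xrcc5, Xrcc6, Xrcc1, Lig1, Parp1, Ung and Apex1) and Mgmt kept their call under every scaling with a value. Xrcc4 and Mutyh turned to a call in the opposite direction. The other 4 (Mre11, Fancd2, Chek1 and Mpg) kept their sign and lost the call under at least 1 scaling. With quantile normalization of the processed signal, Rad50, Mre11, Fancd2 and Chek1, whose means in normal tissue were 6.46 to 6.80 as reported, differed by 2.53, 2.49, 3.13 and 3.02. With the reported background correction and 75th percentile scaling they differed by 0.29, 0.04, 0.14 and 0.34, so the size of their rise depends on these settings.

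**Figure D2:**
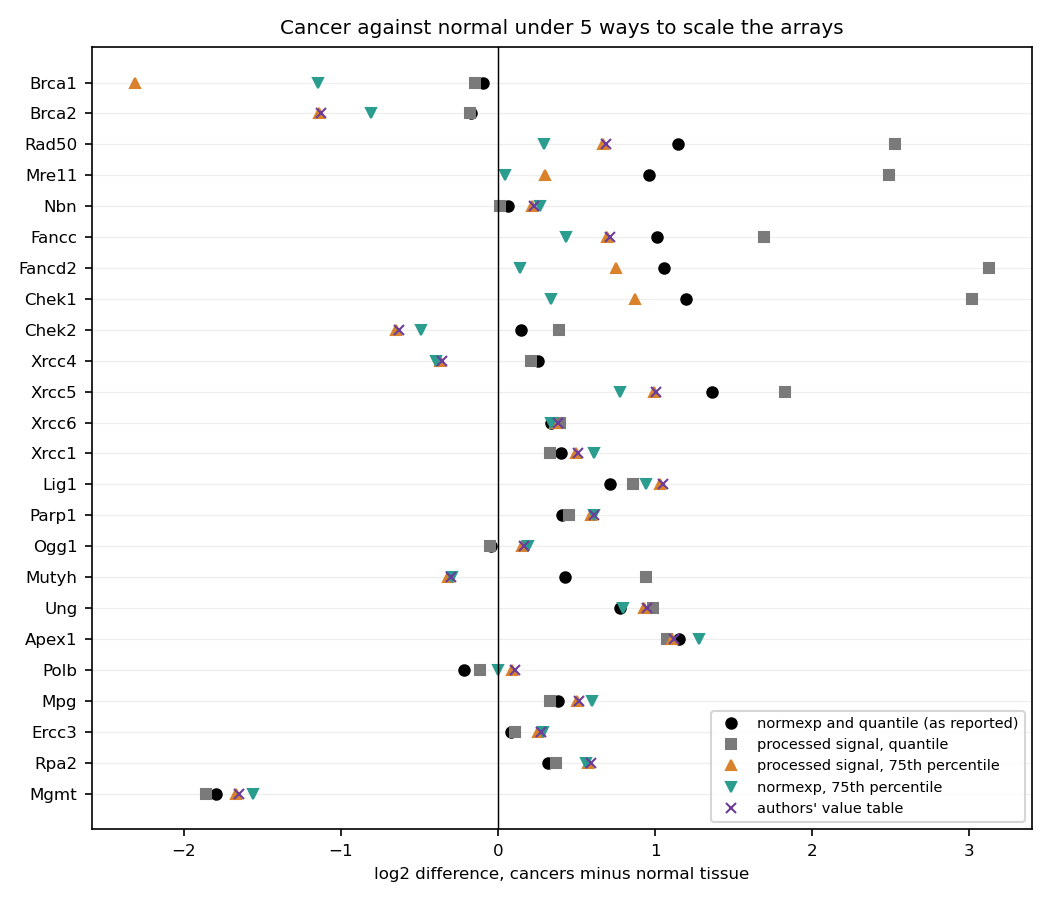
Log2 difference between cancers and normal tissue for each of the 24 members under 5 scalings (symbols), all minus normal tissue. The authors' table has values for 20 members and matches the processed signal scaled to the 75th percentile. Rad50, Xrcc5, Lig1, Apex1 and Mgmt keep their side under all 5, while Xrcc4 and Mutyh are at 0.25 and 0.43 as reported and at -0.37 and -0.31 with the processed signal scaled to the 75th percentile; Brca1, Brca2 and Chek2 move to the left under that scaling.

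In homologous recombination, Rad50 and Mre11 were higher in cancers, while Brca1, Brca2 and Nbn were not called. Rad50 and Mre11 are the core of the complex that holds and trims broken ends, and Nbn (0.06, adjusted p = 0.558) is their remaining partner, which brings the complex to the signalling kinases. In the 6 OP cancers Rad50 ran from 7.61 to 7.99 with a median of 7.84, in OR cancers it was 7.94, 7.94 and 8.16, and in LC cancers 7.88, 8.01 and 8.07. In normal tissue it was 6.74, 6.88 and 6.87 (OP), 6.82 and 6.71 (OR), and 6.77, 6.71 and 6.91 (LC). The groups are far apart, with the lowest cancer above the highest normal tissue. Rad50 thus differed by 1.15 (SE 0.0579, 2.22-fold, adjusted p = 4.12e-10), the smallest adjusted p among the members.

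Mre11, the nuclease of the complex, ran from 7.25 to 7.59 in OP cancers (median 7.42), was 7.49, 7.54 and 7.90 in OR cancers and 7.54, 7.36 and 7.47 in LC cancers. Normal tissues were at 6.54, 6.5 and 6.5 (OP), 6.54 and 6.54 (OR), and 6.33, 6.53 and 6.91 (LC). Again all cancers are above all normal tissues, and the third LC normal tissue is the nearest. The difference was 0.96 (SE 0.0777, 1.95-fold, adjusted p = 5.64e-08), but 0.30 (adjusted p = 0.117) and 0.04 (adjusted p = 0.776) with the arrays scaled to the 75th percentile, on the processed signal and after background correction. Rad50 was 0.67 and 0.29 under these scalings and stayed called.

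The BRCA genes gave no call. Brca1, which steers broken ends towards recombination, lay between 6.64 and 7.12 in cancers and between 6.75 and 7.37 in normal tissue, a difference of -0.10 (SE 0.0872, adjusted p = 0.358). Brca2, which acts in the strand exchange step of recombination, differed by -0.17 (SE 0.0819, adjusted p = 0.0750). Its ranges overlapped, 7.32 to 8.18 in cancers and 7.42 to 8.12 in normal tissue. The dimmer Brca2 probe differed by 0.40, in the other direction. With the arrays scaled to the 75th percentile both genes were called lower, Brca1 at -2.31 and -1.14 and Brca2 at -1.14 and -0.81, and Brca2 was at -1.13 in the authors' deposited table.

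Both Fanconi anaemia members were higher in cancers. Fancd2, which is marked with ubiquitin and gathers at crosslinks, ran from 7.10 to 7.74 in OP cancers (median 7.51), was 7.48, 7.73 and 8.13 in OR cancers and 7.69, 7.36 and 7.5 in LC cancers. Its normal tissue levels were 6.54, 6.49 and 6.45 (OP), 6.46 and 6.42 (OR), and 6.64, 6.69 and 6.53 (LC). No cancer reached the range of normal tissue, and the difference was 1.06 (SE 0.0995, 2.08-fold, adjusted p = 2.68e-07), or 0.14 (adjusted p = 0.459) with background correction and 75th percentile scaling.

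Fancc, a subunit of the core complex that puts this mark on Fancd2, varied more in normal tissue. It ran from 7.85 to 8.65 in OP cancers (median 8.48), was 8.26, 8.25 and 8.55 in OR cancers and 8.44, 8.40 and 8.44 in LC cancers. The normal tissues lay at 7.84, 6.81 and 7.61 (OP), 7.31 and 6.88 (OR), and 6.59, 8.31 and 7.95 (LC). LC normal tissues 2 and 3 lie within the range of cancers. The difference was 1.01 (SE 0.200, 2.01-fold, adjusted p = 0.000365), and 0.89 (adjusted p = 0.0749) with only the 3 slides that held both tissues.

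Of the checkpoint kinases, Chek1 was called higher and Chek2 was not called. Chek1, which halts the cell cycle when replication stalls, ran from 7.14 to 7.93 in OP cancers (median 7.54), was 7.45, 7.76 and 8.01 in OR cancers and 7.65, 7.75 and 7.56 in LC cancers. In normal tissue it was 6.43, 6.40 and 6.47 (OP), 6.33 and 6.39 (OR), and 6.47, 6.71 and 6.51 (LC). Cancers and normal tissue do not overlap. Chek1 rose by 1.2 (SE 0.0973, 2.30-fold, adjusted p = 5.89e-08), and was at 0.34 (adjusted p = 0.0562) with background correction and 75th percentile scaling.

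Chek2, the kinase that answers to breaks through both strands, was not called at 0.14 (SE 0.142, adjusted p = 0.394). Its cancers ran from 7.51 to 8.28, while normal tissue ran from 7.38 to 8.86, the highest value being the second LC normal tissue. It was called lower instead at -0.65 and -0.49 with either scaling to the 75th percentile, and at -0.63 in the authors' deposited table. Whether Chek1 and Chek2 differ in their change was not tested.

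**Figure D3:**
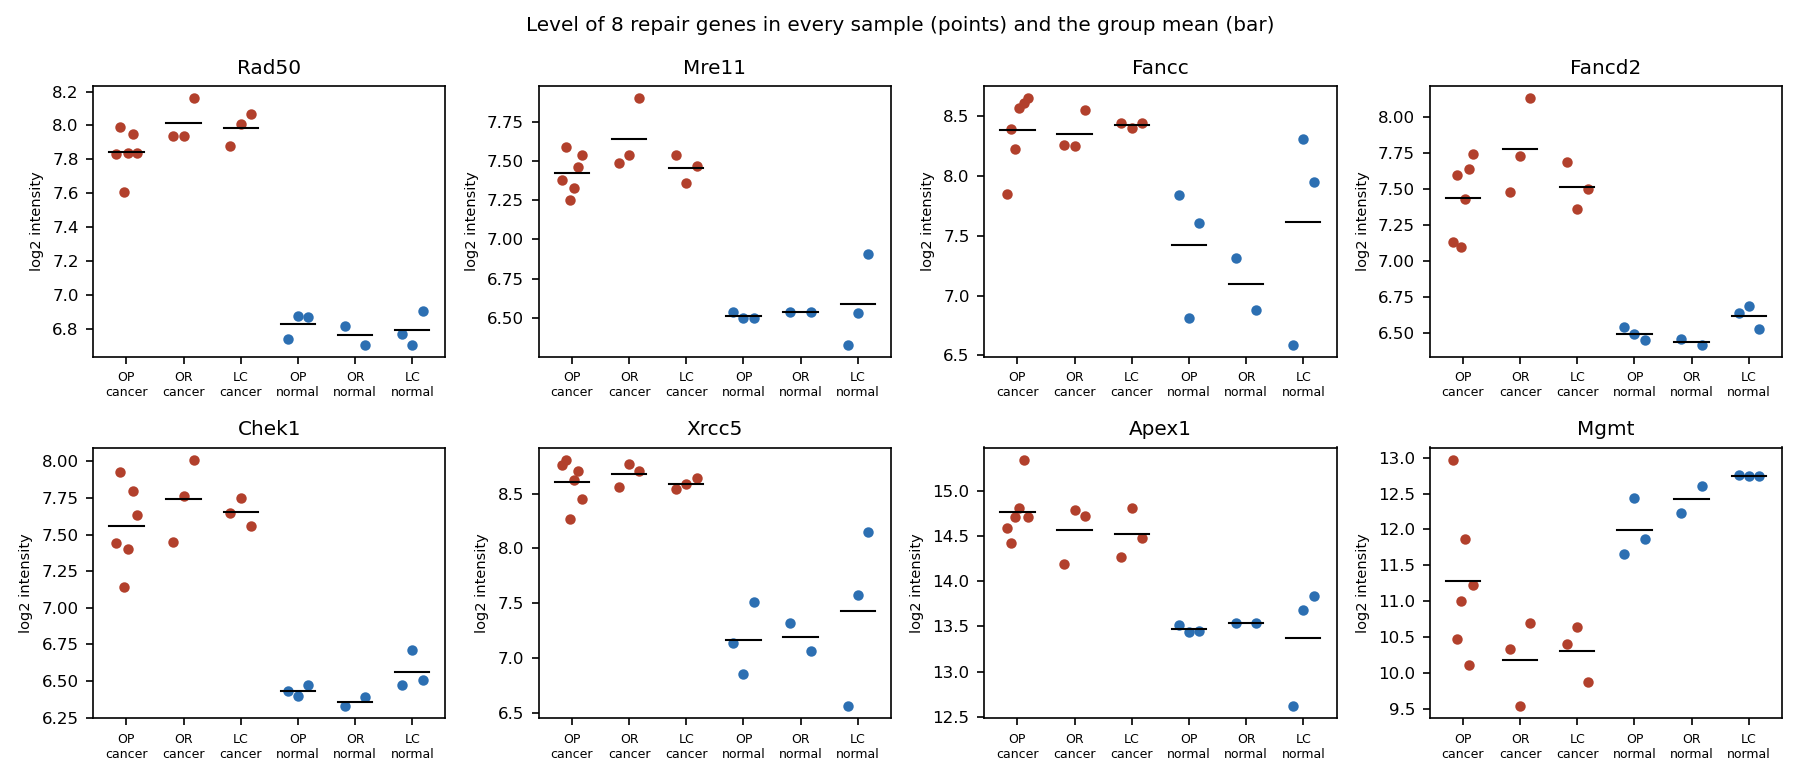
Log2 level of 8 members in each sample (points, cancers red and normal tissue blue) by obesity group, with the group mean as a bar; each panel has its own vertical axis, which does not start at 0. Rad50, Mre11, Fancd2, Chek1, Xrcc5 and Apex1 show no overlap between the tissues, Fancc overlaps through LC normal tissue, and in Mgmt a single OP cancer at 12.97 lies above every normal tissue.

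All 3 tested end joining genes were higher in cancers as reported. Xrcc5 codes for the larger subunit of Ku, the ring that caps broken ends, and ran from 8.27 to 8.81 in OP cancers (median 8.67), was 8.56, 8.77 and 8.71 in OR cancers and 8.54, 8.59 and 8.64 in LC cancers. Normal tissues were at 7.14, 6.85 and 7.51 (OP), 7.32 and 7.06 (OR), and 6.56, 7.57 and 8.15 (LC). All cancers are above all normal tissues, and LC normal tissue is the most spread. The difference of 1.36 (SE 0.160, 2.57-fold, adjusted p = 2.51e-06) was the largest among the members that rose under the reported scaling, whereas Apex1 was larger under both 75th percentile scalings and Fancd2, at 3.13, was the largest with quantile normalization of the processed signal.

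The partner subunit of Ku, Xrcc6, was higher by a smaller amount, 0.34 (SE 0.0942, 1.27-fold, adjusted p = 0.00486). Its cancers ran from 9.12 to 9.47 and its normal tissues from 8.38 to 9.20, so that the ranges overlap. With the slides that held both tissues alone it was 0.37 (adjusted p = 0.103). Xrcc4, the scaffold of the ligase that seals the ends, was at 0.25 (SE 0.0798, adjusted p = 0.0113), with cancers between 7.54 and 8.20 and normal tissue between 7.26 and 7.94. It was called lower at -0.37 and -0.39 with scaling to the 75th percentile and at -0.35 in the authors' deposited table, and not called without the first OR normal tissue (0.17, adjusted p = 0.0785). The direction of Xrcc4 thus rests on the scaling.

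Base excision held the most members, and 7 of 9 were higher in cancers. Apex1, the endonuclease that nicks DNA at sites that have lost their base, ran from 14.42 to 15.34 in OP cancers (median 14.71), was 14.19, 14.78 and 14.72 in OR cancers and 14.27, 14.81 and 14.48 in LC cancers. Its normal tissue levels were 13.51, 13.44 and 13.45 (OP), 13.54 and 13.54 (OR), and 12.62, 13.68 and 13.83 (LC). The tissues do not overlap, and the difference was 1.15 (SE 0.156, 2.23-fold, adjusted p = 1.02e-05), with 1.07 to 1.28 under the other scalings.

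Lig1, which seals nicks in repair and between newly copied fragments, was higher by 0.72 (SE 0.0973, 1.64-fold, adjusted p = 1.09e-05). Its cancers ran from 12.25 to 13.06 (median 12.69) and its normal tissues from 11.89 to 12.33 (median 11.94), overlapping only through the first OP cancer and the third OP normal tissue. Xrcc1, the scaffold of break repair in a single strand, was higher by 0.40 (SE 0.0639, adjusted p = 5.14e-05). Parp1, the sensor of such breaks, was at 0.41 (SE 0.118, adjusted p = 0.00660). Its dimmer probe was at 0.69. The third LC normal tissue had a Parp1 level of 13.63, above all cancers, the highest of which was 13.60. With the slide as a block the Parp1 difference was 0.34 and no longer called (adjusted p = 0.106).

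Of the glycosylases, 3 were higher and Ogg1 was not called. Ung, which removes uracil, was at 0.77 (SE 0.228, 1.71-fold, adjusted p = 0.00735), with cancers from 8.62 to 10.28 and normal tissue from 7.99 to 9.5. Its difference was 0.46 (adjusted p = 0.142) with the slide and 0.28 (adjusted p = 0.347) with the scan day as a block. Mutyh, which removes adenine paired with oxidized guanine, was at 0.43 (SE 0.124, adjusted p = 0.00671), but was called lower at -0.31 and -0.29 under the 75th percentile scalings. Mpg, which removes alkylated adenine, was at 0.38 (SE 0.155, adjusted p = 0.0410), at 0.76 with its dimmer probe, and lost its call without any of 15 samples taken singly.

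Ogg1, the glycosylase for oxidized guanine, was not called at -0.04 (SE 0.100, adjusted p = 0.726). Most samples lay between 10.16 and 10.77, and LC normal tissues 2 and 3 stood above them at 11.38 and 11.26. Polb, the polymerase that fills the gap, was not called at -0.21 (SE 0.124, adjusted p = 0.144), and its dimmer probe was also at -0.21.

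Of nucleotide excision only Ercc3 was tested, a helicase of the factor that opens DNA around a lesion and also serves transcription. It ran from 12.24 to 12.78 in cancers (median 12.65) and from 12.27 to 12.95 in normal tissue (median 12.48), and its difference of 0.08 (SE 0.0905, 95% interval -0.11 to 0.28, adjusted p = 0.433) was not called. Rpa2, a subunit of the protein that coats single strands in recombination and excision repair, ran from 10.46 to 11.36 in cancers and from 10.27 to 11.60 in normal tissue. Its difference was 0.32 (SE 0.145, adjusted p = 0.0681). LC normal tissues 2 and 3, at 11.23 and 11.60, lie at the upper end of all samples. With scaling to the 75th percentile Rpa2 was called higher at 0.57 and 0.56, and in the authors' deposited table it was at 0.59.

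Mgmt went the other way. It codes for the enzyme that takes methyl groups off guanine without cutting DNA. In OP cancers it ran from 10.11 to 12.97 (median 11.12), in OR cancers it was 10.33, 9.54 and 10.69, and in LC cancers 10.41, 10.64 and 9.88. The normal tissues lay at 11.66, 12.44 and 11.86 (OP), 12.23 and 12.61 (OR), and 12.76, 12.75 and 12.74 (LC). OR and LC cancers lie below every normal tissue, and 2 OP cancers, at 12.97 and 11.87, lie within or above the range of normal tissue. Mgmt fell by 1.79 on the log2 scale (SE 0.304, 3.47-fold lower, adjusted p = 9.02e-05), and was between -1.86 and -1.56 under the other scalings.

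**Figure D4:**
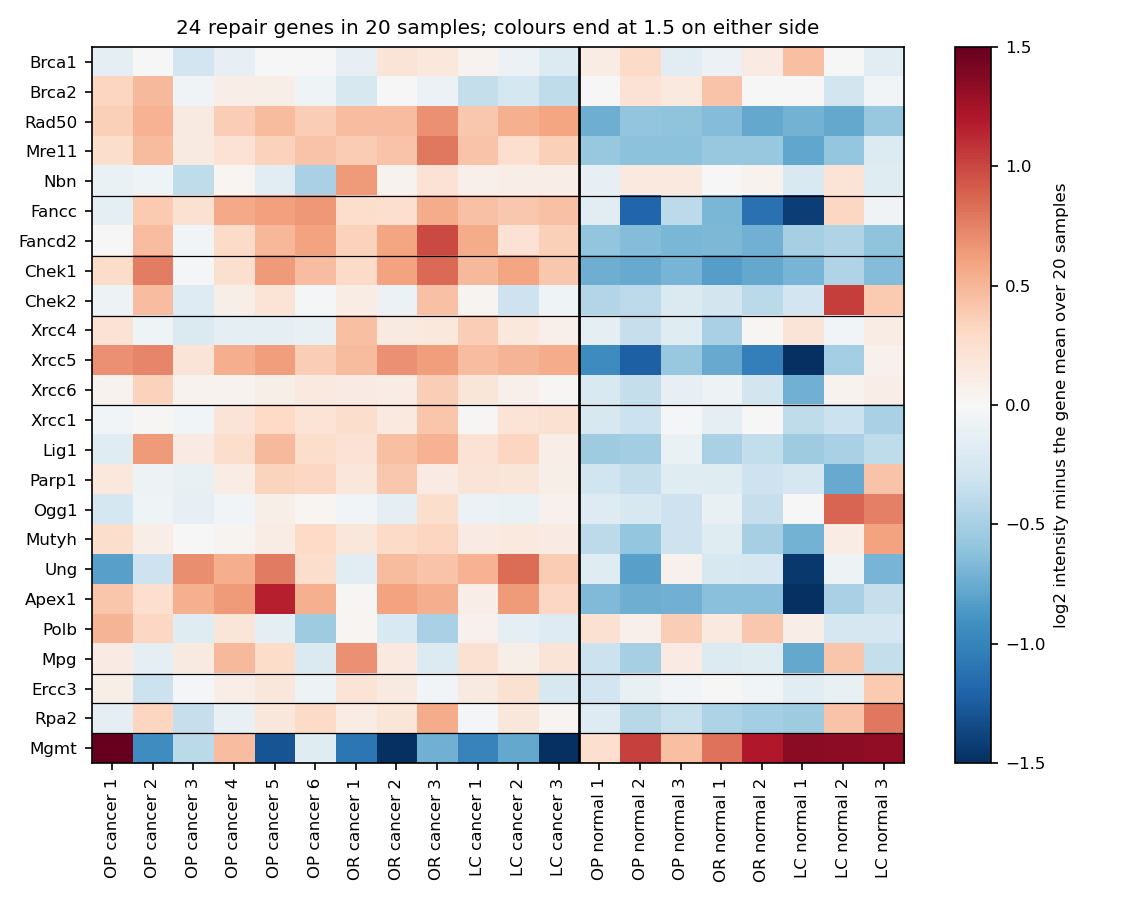
Log2 level of the 24 members in each of the 20 samples minus the gene's mean over all samples, in rows by pathway (black lines); colours end at 1.5 on either side, and the black vertical line parts cancers from normal tissue. Rad50 and Mre11 are red in cancers and blue in normal tissue, and Fancd2, Chek1 and Xrcc5 are mostly so. Mgmt is mostly the reverse, with the OP cancers at 12.97 and 11.87 red. LC normal tissues 2 and 3 are red in Ogg1, Chek2 or Rpa2.

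Slides and scan days were not evenly shared by the tissues. Slides 1, 2 and 3 held 4 cancers and all 8 normal tissues, and slides 4 and 5 held 8 cancers read on another scan day. Within slide 1 all 16 called members differed in the reported direction, within slide 2 all but Mpg (15 of 16), and within slide 3 all 16. Xrcc5 was at 1.80, 1.56 and 0.99 on these slides, Apex1 at 1.37, 0.86 and 0.59, and Mgmt at -0.52, -2.0 and -2.07. With these slides alone 9 members were called higher, and of 36043 genes 17241 were called, 48.9% of them rises. Rad50, Xrcc5, Xrcc1, Lig1, Apex1 and Mgmt kept their call under every scaling, with the slide or scan day as a block, on the slides with both tissues alone and without any 1 sample.

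The genes of cell division moved with the tissue too. All 13 tested genes of S phase and mitosis were called higher in cancers (median 1.95), beside 29% of all genes. Within OP, OR and LC 13, 13 and 6 of them were called higher, beside 21.2%, 13.9% and 19.9% of all genes. Their median difference within LC was 1.16. The mean level of the 13 genes ran from 8.93 to 10.67 in cancers and from 7.52 to 9.49 in normal tissue. Among cancers, the third OR cancer had the highest mean (10.67) and the highest Fancd2 (8.13) and Chek1 (8.01). The third OP cancer had the lowest mean (8.93) and the lowest Fancd2 (7.10) and Chek1 (7.14). Among normal tissues, the second LC sample had the highest mean (9.49), above that of 3 cancers, and the highest Fancd2 (6.69) and Chek1 (6.71), which still lay below every cancer. Its Rad50 level of 6.71 was among the lowest of all samples. The part of cell division in the differences of these members was not tested.

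**Figure D5:**
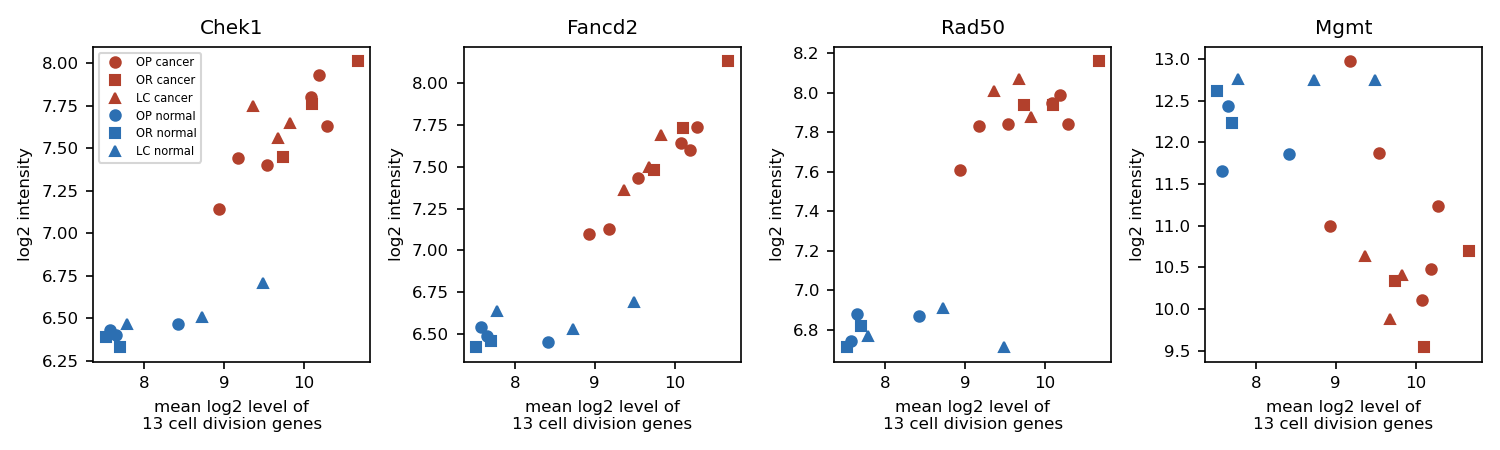
Log2 level of Chek1, Fancd2, Rad50 and Mgmt (vertical axes, which do not start at 0) against the mean log2 level of 13 cell division genes (horizontal axes) in each of the 20 samples, with cancers red, normal tissue blue and the obesity group by symbol. The third OR cancer is at the upper right of the Chek1 and Fancd2 panels at 10.67, and the LC normal tissue at 9.49 has low Rad50 at 6.71.

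Other repair genes outside the 50 were read from lists of the same pathways. Of 118 listed, 46 were tested, with the reported scaling alone, and their median was 0.60. In cancers 32 were higher, 6 lower and 8 not called, beside 29% of all genes higher and 33.5% lower. In mismatch repair, 2 of 4 tested genes were higher and 2 were not called, with a median of 0.52. Pms1 was higher at 0.91 (SE 0.106, adjusted p = 2.43e-06), and Msh5, a gene of this family that acts in meiosis, was not called at -0.68 (SE 0.398, adjusted p = 0.145). All 8 other genes of damage signalling were higher. Of the other genes, the smallest p-values among rises belonged to Parg (0.65), which removes the polymer made by Parp1, Rad17 (1.22), which loads the checkpoint clamp, and Fen1 (1.37), the flap nuclease. Among falls they belonged to Nhej1 (-0.90), which aids Xrcc4 in end joining, Alkbh3 (-0.54), which reverses alkylation, and Apex2 (-1.25), a relative of Apex1. Of 4 further end joining genes, 2 fell and 1 rose, whereas 5 of 7 further genes of nucleotide excision rose. Bard1, the partner of Brca1, was at 1.60, the largest rise of these 46, and is named here after its value was seen.

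The cancer difference was then read within each obesity group, with all 20 arrays in the fit. In OP, 11 of 24 members were higher and 0 lower, beside 21.2% and 23.4% of all genes (44.5% either way). In OR, 11 were higher and 1 lower, beside 13.9% and 14.5% (28.4%). In LC, 9 were higher and 2 lower, beside 19.9% and 23.6% (43.6%). Without the second OP normal tissue 7 members were higher in OP. In OR 6 were higher without the first OR normal tissue and 7 without the other OR normal tissue or the third OR cancer, and 0 were lower without the second OR normal tissue. In LC 4 were lower without the first LC normal tissue and 1 without either of the others. With the processed signal scaled to the 75th percentile, the background-corrected signal scaled so, and the authors' deposited table, the higher counts were 4, 6 and 5 in OP, and 7, 6 and 5 in OR. The lower counts were 3, 3 and 2 in OP, the same in OR, and 5, 4 and 4 in LC, where 5 were higher under the latter 2. The share of all genes called within a group under these scalings, or without a sample, is not given. As reported, 8 members were higher in each of the 3 groups: Rad50, Mre11, Fancd2, Chek1, Xrcc5, Xrcc1, Lig1 and Apex1. Of these, Xrcc5 and Lig1 kept their call in all 3 groups under every scaling, filter and block run. Rad50 rose by 1.01, 1.25 and 1.19 in OP, OR and LC, and was at 0.13, 0.33 and 0.43 and not called with background correction and 75th percentile scaling. On the processed signal scaled so, Rad50 was not called in OP either (0.39, adjusted p = 0.172). Chek1 rose by 1.12, 1.38 and 1.09, and was at 0.24, 0.48 and 0.30 and not called with background correction and 75th percentile scaling. Mre11 and Fancd2 lost their call in all 3 groups under that scaling. With the processed signal scaled to the 75th percentile, Mre11 was not called in OP, OR or LC. Neither Chek1 nor Fancd2 was called there in OP or LC. Chek1 was then at 0.73 in OP (adjusted p = 0.0756) and 0.70 in LC (adjusted p = 0.14). With the slide as a block Xrcc1 was not called in OP (0.22, adjusted p = 0.200) or OR (0.27, adjusted p = 0.207), nor Apex1 in OR (0.78, adjusted p = 0.121).

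Mgmt was at -0.71 (SE 0.457, adjusted p = 0.221) in OP, -2.23 (SE 0.589, adjusted p = 0.0107) in OR and -2.44 (SE 0.527, adjusted p = 0.00183) in LC. The difference between OP and LC was 1.73 (SE 0.697, unadjusted p = 0.0248, adjusted p = 0.489 over all genes by limma), and between OP and OR 1.52 (adjusted p = 1.0), so that no difference in the fall was called. Without the first OP cancer, the one at 12.97, Mgmt is the 1 member called lower in OP, at -1.05 (adjusted p = 0.0215). Without the second OR normal tissue the fall in OR is not called (adjusted p = 0.103). Ogg1 was lower in LC cancers alone at -0.58 (SE 0.173, adjusted p = 0.0131), where LC normal tissue was at 10.50, 11.38 and 11.26 against 10.41 to 10.57 in LC cancers. It lost that call without either of the LC normal tissues at 11.38 and 11.26. Ung was higher in LC at 1.33 (adjusted p = 0.0128) and not called in OP (0.51) or OR (0.49), and its LC call was lost when scan day was a block (0.83, adjusted p = 0.0744) or the first LC normal tissue was left out (adjusted p = 0.0735).

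No member was called for a cancer change that differed between obesity groups. The interaction terms called 0 of 24 members and 0% of all genes in each pair, with 3 (OP against LC), 1 (OP against OR) and 3 (OR against LC) members at an unadjusted p under 0.05. The smallest p-values belonged to Ogg1 (0.77, adjusted p = 0.281), Chek2 (0.92, adjusted p = 0.395) and Mgmt for OP against LC. For OP against OR they belonged to Nbn (-0.52, adjusted p = 1.0), Mgmt and Brca2 (0.36), and for OR against LC to Ogg1 (0.84, adjusted p = 0.369), Chek2 (0.99) and Rpa2 (0.94). At the median SE the 95% interval of such a term reached 0.469, 0.501 and 0.532 to either side for these pairs, before adjustment over genes.

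Among the 12 cancers, fitted alone, obesity group called no member and 0% of all genes in any pair, with 3 (OP against OR), 2 (OP against LC) and 0 (OR against LC) members at an unadjusted p under 0.05. Brca2 was higher in OP than in LC cancers by 0.48 (SE 0.119, 95% interval 0.22 to 0.74, adjusted p = 0.291 by limma). Its level ran from 7.63 to 8.18 in OP cancers, was 7.46, 7.69 and 7.61 in OR cancers, and 7.34, 7.43 and 7.32 in LC cancers. The share of all genes that separate obesity groups in this way was not counted. For OP against LC, Xrcc4 was at -0.28 (adjusted p = 0.621) and Nbn at -0.29 (adjusted p = 0.712). Between OP and OR cancers the smallest p-values belonged to Nbn (-0.50, adjusted p = 0.378), Xrcc4 (-0.33, adjusted p = 0.378) and Brca2 (0.26, adjusted p = 0.458). Between OR and LC cancers they belonged to Brca2 (0.22), Mre11 (0.19) and Chek2 (0.26), each with an adjusted p of 0.998. The interval reached 0.257 to either side of the OP differences at the median SE.

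Among the 8 normal tissues, fitted alone, no member and 0% of all genes were called either, with 0 (OP against OR), 3 (OP against LC) and 3 (OR against LC) members at an unadjusted p under 0.05. Mgmt was lower in OP than in LC normal tissue by 0.76 with an interval of -1.26 to -0.26, and was not called (adjusted p = 0.333 by limma). The values were 11.66, 12.44 and 11.86 in OP and 12.74 to 12.76 in LC. How many of all genes separate these 2 groups was not counted. Ogg1 was at -0.80 (adjusted p = 0.359) in that pair and -0.77 (adjusted p = 0.440) for OR against LC. Polb was at 0.36 and 0.41 in these pairs, Xrcc1 at 0.31 for OR against LC, and the smallest p-values for OP against OR were those of Mgmt (-0.43), Xrcc1 (-0.12) and Chek1 (0.07), each with an adjusted p of 1.0.

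The 3 LC normal tissues differed in their cell type markers. The third had a mean T and NK cell marker level of 10.92, where the other 7 normal tissues lay between 7.45 and 7.96, and a B cell marker level of 11.99. It had the highest Parp1 (13.63), Rpa2 (11.60), Xrcc5 (8.15), Mutyh (8.29) and Mre11 (6.91) of all normal tissues. The second had the highest cell division mean, with the highest Chek2 (8.86) and Ogg1 (11.38). The first had the lowest luminal mean (9.29) and the highest adipocyte mean (12.92) of normal tissue, with the lowest Ung (7.99), Apex1 (12.62) and Xrcc6 (8.38). Without the first, the interactions of OP against LC called Chek2, Ogg1 and Mutyh (1.26, 1.04 and 0.80; 2.1% of all genes called), those of OR against LC also Rpa2 (1.32; 2.07%), and Ogg1 and Rpa2 were called lower in OP (-1.07 and -0.92; 1.83%) and OR (-1.05 and -1.1; 2.3%) than in LC normal tissue. Those calls then rest on LC normal tissues 2 and 3, and the part of lymphocytes and cell division in them was not tested.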

How the data were processed

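Single-colour Agilent Whole Rat Genome arrays (design build rn4) measured 20 RNA samples. Per the file headers, the scanner files hold spot and local background intensity, and quality flags (other, 0 or 1), from Feature Extraction 9.5.1.1, while the submitters' processing notes name version 10.7.3.1. The authors' deposited value table holds log2 values. They match the processed signal minus each array's 75th percentile, centred per probe, and show no quantile step, though the design text names RMA.

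The software was limma 3.58.1 and jsonlite 2.0.0 under R 4.3.3, with matplotlib 3.10.9 under Python 3.11.15 for figures. Median signals were background-corrected (normexp, offset 50), since the files used here have no mean signal as first planned, and were quantile-normalized. Control spots, 115 probes with an outlier mark, and 825 dim probes (well above background on under 0.5 of the arrays in every group) were left out, and the brightest probe per gene was kept. Saturated spots numbered 0. RefSeq accessions gave names for 10746 of 11186 probes that carry an NM accession.

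Group means were fitted with lmFit and eBayes. Cancer against normal tissue compares the means of 3 group means, and all adjusted p-values are limma's. All members were named, with values by sample for members past 2-fold and the smallest p of each pathway. The code was tested on simulated data. Members, lists and rules were chosen with earlier results of these data known. Alternatives were other scalings, dim-probe filters, the mean of all probes, slide, scan day or replicate number as a block, slides with both tissues alone, and leaving out each sample. The number of arrays limits the precision. The results of some single genes are not reported here.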

Additional observations from a re-analysis of the deposited data

Results flagged for a closer look

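Both results below concern the 6 OP cancers, the only group with 4 to 10 samples, in which each of the 24 members was checked for a sample far from the others, and chance flags about 1 gene in 20. Xrcc4 in the first OP cancer was at 7.97, and the nearest sample was at 7.69, a gap of 0.637 of the group's whole range. Xrcc6 in the second OP cancer was at 9.45, and the nearest sample was at 9.25, a gap of 0.652 of the range.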

How the results depend on the processing

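The 3 other scalings are given in the order processed signal, background-corrected signal, authors' deposited table. The last of them matches the first, on fewer genes. For cancer against normal tissue, members called lower numbered 6, 6 and 5 (1 as reported), and members called higher 9 on the slides with both tissues alone (15 as reported). Over all genes, 29135, 29357 and 12428 were called, with 17.7%, 17.3% and 39.5% rises. On those slides alone 17241 were called, with 48.9% rises. Shares of all genes within the obesity groups are not given for these settings. Within OP the higher count was 4, 6 and 5, and 7 with a replicate block, and the lower count 3, 3 and 2. Within OR the higher count was 7, 6 and 5, and 7 with quantile normalization of the processed signal, the slide or the scan day as a block, and the lower count 3, 3 and 2. Within LC the higher count was 5 and 5 with the last 2 of these scalings, and the lower count 5, 4 and 4, and 1 with the slide as a block. Reversed members over all samples were Chek2 (-0.65, -0.49 and -0.63), Xrcc4 (-0.37, -0.39 and -0.35) and Mutyh (-0.31, -0.29 and -0.30). Within OP they were Mutyh (-0.21, -0.24 and -0.20) and, with the background-corrected signal, Mre11 (-0.0484) and Fancd2 (-0.0027), and within OR Xrcc4 (-0.16, -0.22 and -0.13). The cause was not tested.

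Without any 1 sample, the higher and lower counts ran from 13 to 15 and 1 to 2 for all samples, 7 to 13 and 0 to 1 within OP, 6 to 13 and 0 to 1 within OR, and 8 to 11 and 1 to 4 within LC. The interactions against LC ran from 0 to 3 (OP) and 0 to 4 (OR) higher, and normal tissue against LC from 0 to 2 lower. The second OP normal tissue gave the 7 of OP and the first OR normal tissue the 6 of OR. The OR count was 7 without the second OR normal tissue or the third OR cancer. The LC lower count was 4 without the first LC normal tissue, and 1 without either of the others. The added lower call over all samples, without the second OP cancer, second OR normal or second LC normal tissue, was Brca2. Filters on dim probes and the mean of all probes changed no call over all samples, but leaving the filter out ended the call of Rpa2 within OR (0.77, adjusted p = 0.0503). After group means were removed, same-numbered samples of different groups correlated between -0.347 and 0.279 (40 pairs). Other-numbered samples correlated between -0.492 and 0.573 (122 pairs). These pairs include samples from different obesity groups, so they cannot show whether a cancer and a normal tissue came from the same rat. The replicate block changed the overall call of Mpg alone (0.36, adjusted p = 0.104).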
